A study of Mus musculus with 3 samples.

Results

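The epithelial miRNAs examined here were 8 mature forms fixed by name, of 1915 mature miRNAs listed in each library of developing mouse retina. They were miR-184-3p, miR-203-3p, miR-205-5p and the 5 guide strands of the miR-200 family (miR-200a-3p, miR-200b-3p, miR-200c-3p, miR-141-3p and miR-429-3p). All 8 had at least 1 read in every library, and 6 averaged 1 or more in RPM (reads scaled to the library's total of miRNA reads) across the 3 libraries. MiR-205-5p, with a mean of 1.24 RPM, lay just inside that limit and miR-141-3p, with 0.927 RPM, just outside it. The study followed the miRNAs of C57BL/6 (C57BL/6J in the study's methods) retina on postnatal days 1, 7 and 17 (P1, P7, P17), and its labels name no treatment or genotype change. Each age was represented by a pool of 5 eyes sequenced as 1 library, so there were no replicates, no test between ages was possible, and age cannot be told apart from library. Depth was similar, at 11426320 miRNA reads for P1, 12759995 for P7 and 11659722 for P17.

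MiRNAs guide Argonaute proteins to messenger RNAs, mainly through the seed, bases 2 to 8 from the 5′ end, and forms with the same seed share most predicted targets. The miR-200 family is best known for repressing Zeb1 and Zeb2, transcription factors that switch off E-cadherin, and so for holding cells in an epithelial state. MiR-205 is enriched in stratified epithelia, miR-203 in the suprabasal layers of skin, where it represses the basal-cell factor p63, and miR-184 is among the main miRNAs of corneal epithelium and lens. The neural retina derives from neuroepithelium and lies against the pigment epithelium, with lens and cornea in the same eye.

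The mature sequences are shown because the seeds, in capitals, sort the 5 family members into their target groups. They are the RefSeq sequences of build GRCm38.p6, and all 8 names matched.
mmu-miR-184-3p: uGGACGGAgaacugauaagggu
mmu-miR-203-3p: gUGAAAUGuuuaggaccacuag
mmu-miR-205-5p: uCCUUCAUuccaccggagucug
mmu-miR-200b-3p: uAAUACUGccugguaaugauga
mmu-miR-200c-3p: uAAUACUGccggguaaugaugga
mmu-miR-429-3p: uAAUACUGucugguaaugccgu
mmu-miR-200a-3p: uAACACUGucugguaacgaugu
mmu-miR-141-3p: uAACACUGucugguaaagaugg

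MiR-200b-3p, miR-200c-3p and miR-429-3p shared the seed AAUACUG, and miR-200a-3p and miR-141-3p shared AACACUG. No other mature mouse miRNA in the RefSeq table carried either seed, and none shared a seed with miR-184-3p, miR-203-3p or miR-205-5p. Of the 1915 miRNAs listed in the libraries, 1623 matched that table by name, and the seeds of the others were not checked. The seed groups differ by the substitution U4C, counted from the 5′ end of miR-200b-3p with miR-141-3p as the second sequence. MiR-200b-3p and miR-200c-3p differed at 2 of 22 compared positions (U11G and A22G), and miR-200a-3p and miR-141-3p at 2 of 22 (C17A and U22G). How the authors counted a read that matched both members of such a pair is not given in the sources used here, so values within these pairs are uncertain.

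The hairpins lie at 5 sites of GRCm38, the build that mm10 also names. The genes Mir200b, Mir200a and Mir429 lie on the minus strand of chromosome 4, at chr4:156055681-156055750, chr4:156054896-156054985 and chr4:156053905-156053987. All 3 are within the protein-coding gene Ttll10 (ENSMUSG00000029074), in no exon of it, and within the non-coding transcript gene Gm13648 (ENSMUSG00000086549), where Mir429 is inside exon 2 and the others are intronic. Mir200c (chr6:124718322-124718390) and Mir141 (chr6:124717914-124717985) are 336 bases apart on the minus strand of chromosome 6, in no exon of the antisense gene Gm15884 (ENSMUSG00000087327) that spans them. Mir205 (chr1:193507463-193507530, minus strand) is inside exon 2 of the lincRNA gene 4631405K08Rik (ENSMUSG00000097850). Mir184 (chr9:89802260-89802328, minus strand) and Mir203 (chr12:112130880-112130955, plus strand) overlap no other gene of the GENCODE annotation. RefSeq places the hairpin of miR-203b on the opposite strand within Mir203, and whether strand was used in counting is not given in the sources used here, so reads of the 2 strands may not be told apart. Each genomic cluster of the family thus holds both seeds.

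The 8 miRNAs comprised a pair that was readily detected at every age and 6 low ones, of which all but miR-429-3p, at the limit of detection, were highest at P1. MiR-184-3p was 5.65-fold higher in the P17 library than in the P1 library, whereas miR-203-3p was 3.34-fold lower. The summed miR-200 family was 6.85-fold lower at P7 than at P1 and stayed low at P17. These folds are on the RPM scale. Scaled by median-of-ratios size factors, which set the typical miRNA near no change, the log2 changes from P1 to P17 were 3.52 for miR-184-3p and -0.69 for miR-203-3p, the latter under 2-fold, against 2.49 and -1.73 in log2(RPM + 1). Fewer expressing cells and less miRNA per cell cannot be told apart in these whole-tissue pools. Folds are ratios of RPM without a pseudocount, with exact 95% binomial intervals, and the intervals of single levels are 95% Wilson intervals. Both reflect counting error alone, because with 1 library per age the spread between animals and between libraries was not measured. PCR copies carrying no molecular identifier are not independent molecules, so the intervals may be too narrow even for that error.

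Mmu-miR-184-3p was counted 1151 times at P1, 1519 times at P7 and 6633 times at P17. In RPM this was 101 (95% interval 95.1 to 107) for P1, 119 (113 to 125) for P7 and 569 (555 to 583) for P17. On the RPM scale the P17 library stood apart, with the earlier libraries close together. The ratio was 1.18 from P1 to P7 (1.09 to 1.28) and 4.78 from P7 to P17 (4.52 to 5.06). The first step was larger under other scalings, with a log2 change of 1.19 by median-of-ratios size factors and 1.21 by TMM factors, both over 2-fold, against 0.24 with RPM. Among all miRNAs with a read, miR-184-3p held place 234 by abundance in the P1 library, 172 in the P7 library and 87 in the P17 library. For the increase from P7 to P17 it held place 13 from the highest of the 648 miRNAs past the abundance filter, a mean of 1 RPM.

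Mmu-miR-203-3p was counted 2889 times at P1, 1913 times at P7 and 883 times at P17. These counts were 253 RPM (244 to 262), 149.9 RPM (143 to 157) and 75.7 RPM (70.9 to 80.9), lower at each later age with intervals that did not overlap. The level was 1.69-fold lower at P7 than at P1 (1.59 to 1.79) and 1.98-fold lower at P17 than at P7 (1.83 to 2.15). The first of these steps depended on the scale. The median change of all 648 miRNAs from P1 to P7 was -0.87 in log2(RPM + 1), against -0.75 for miR-203-3p, whose places by abundance were 174, 160 and 208 in the P1, P7 and P17 libraries. Scaled by median-of-ratios size factors, miR-203-3p was higher at P7 than at P1, by 0.21 on the log2 scale, and scaled by TMM factors by 0.23.

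**Figure D1:**
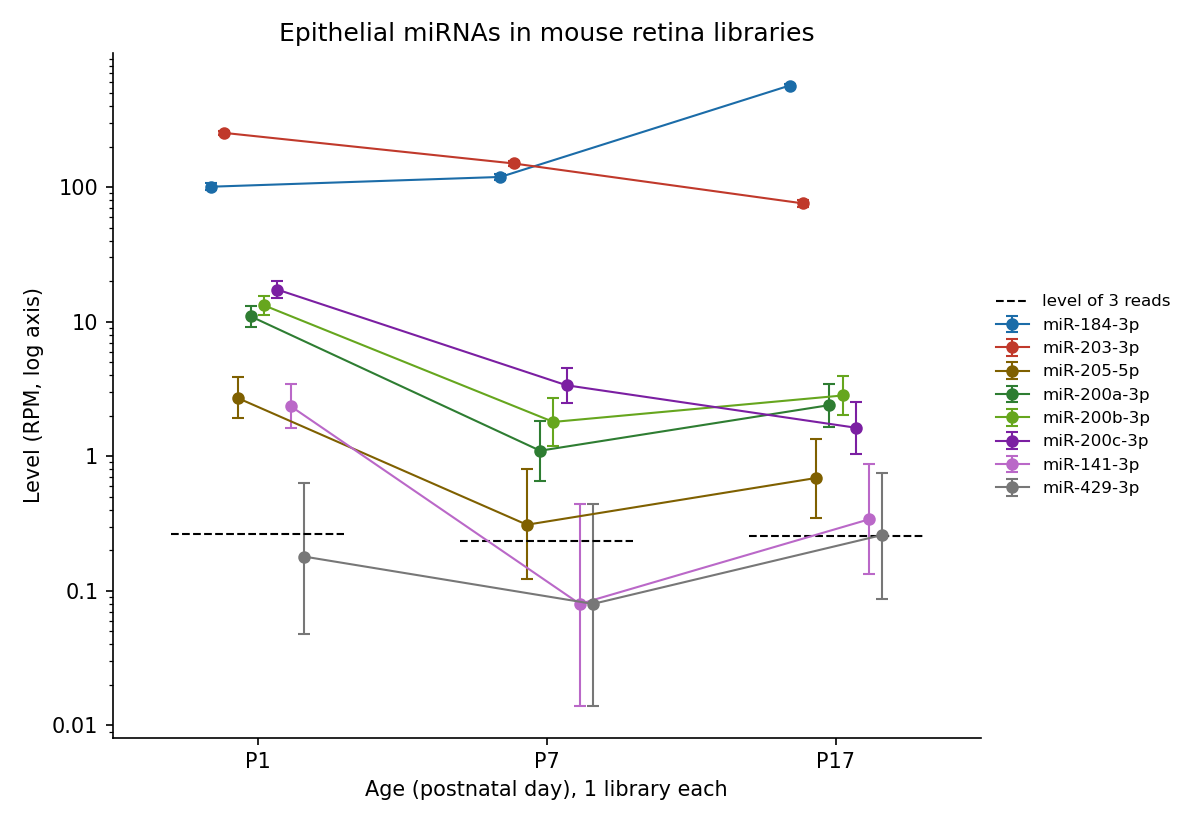
Level of each epithelial miRNA (RPM, log axis) in the P1, P7 and P17 libraries, 1 point per library, with 95% Wilson intervals of counting error. MiR-184-3p and miR-203-3p lie between 75.7 and 569 RPM and change order at P17, and the other 6 lie at 17.3 RPM or less, with the dashed lines marking the level of 3 reads.

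The 2 abundant members exchanged places within the libraries, which no scaling can alter. There were 0.398 reads of miR-184-3p for each read of miR-203-3p at P1 (0.372 to 0.427), 0.794 at P7 (0.742 to 0.850) and 7.51 at P17 (7.00 to 8.07). The ratio was higher at each later age and passed 1 between P7 and P17. Together these miRNAs made up 88.3%, 97.6% and 98.8% of the reads of the 8 members in the P1, P7 and P17 libraries. The share of miR-184-3p alone was 25.2% in the first, 43.2% in the next and 87.2% in the last.

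Reads of the 5 miR-200 family guide strands summed to 503 for P1, 82 for P7 and 87 for P17. In RPM the sum was 44.0 (40.3 to 48.0) for P1, 6.43 (5.18 to 7.98) for P7 and 7.46 (6.05 to 9.20) for P17. The P1 library was far above the later libraries, whose intervals overlapped. The sum was 6.85-fold lower at P7 than at P1 (5.41 to 8.76) and 5.90-fold lower at P17 than at P1 (4.69 to 7.50). The log2 change from P1 to P7 was -2.60 with RPM, -1.69 by median-of-ratios size factors and -1.67 by TMM factors, and that from P1 to P17 was -2.41, -1.43 and -1.42, so the sum was over 2-fold lower under each. From P7 to P17 the log2 ratio was 0.22, with an interval of -0.24 to 0.67 that includes no change.

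Mmu-miR-200c-3p, which shares its cluster with miR-141, was the most abundant family member at P1 and P7, with 198, 43 and 19 reads in the P1, P7 and P17 libraries. These were 17.3 RPM (15.1 to 19.9), 3.37 RPM (2.5 to 4.54) and 1.63 RPM (1.04 to 2.55). It was lower at each later age, by 5.14-fold at P7 (3.68 to 7.33) and by 10.6-fold at P17 (6.63 to 18.0), both against P1. Its level at P17 was 2.07-fold below that at P7 (1.18 to 3.76), although the intervals of those levels overlap slightly.

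Mmu-miR-200b-3p, of the same seed but the other cluster, had 151, 23 and 33 reads in the same order, or 13.2 RPM (11.3 to 15.5), 1.80 RPM (1.2 to 2.70) and 2.83 RPM (2.02 to 3.97). It was 7.33-fold lower at P7 than at P1 (4.71 to 11.9) and 4.67-fold lower at P17 (3.19 to 7.03), and the P7 and P17 levels overlapped. Mmu-miR-200a-3p, its neighbour in the chromosome 4 cluster, had 125, 14 and 28 reads, or 10.9 RPM (9.18 to 13.0), 1.10 RPM (0.654 to 1.84) and 2.40 RPM (1.66 to 3.47). It was 9.97-fold lower at P7 than at P1 (5.73 to 18.8) and 4.56-fold lower at P17 (3.0 to 7.13). Its ratio of P17 to P7 was 2.19 (1.11 to 4.50), above 1 by counting error, while the intervals of the 2 levels overlapped. MiR-200b-3p and miR-200a-3p thus had their lowest values at P7, with intervals that overlapped those at P17, whereas that of miR-200c-3p was at P17. The cluster partner of miR-200c-3p, miR-141-3p, was lowest at P7, with 1 read against 4 at P17.

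The remaining family members were close to the limit of detection. Mmu-miR-141-3p, the cluster partner of miR-200c, had 27 reads at P1, 1 read at P7 and 4 reads at P17, or 2.36, 0.08 and 0.34 RPM. Its level at P17 was 6.89-fold below that at P1 (2.40 to 27.1), and the single read at P7 gave a ratio of 30.2 with an interval of 4.97 to 1234. Mmu-miR-429-3p had 2, 1 and 3 reads, at or under the 3 reads set as the detection limit (0.263, 0.235 and 0.257 RPM), so no fold is given. MiR-141-3p was therefore highest at P1 with the other members, and a difference of miR-429-3p between ages was not detectable at this depth.

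Mmu-miR-205-5p, which lies outside the family, had 31 reads in the P1 library, 4 in the P7 library and 8 in the P17 library. The levels were 2.71 RPM (1.91 to 3.85), 0.31 RPM (0.122 to 0.806) and 0.69 RPM (0.348 to 1.35). Only the P1 level stood clear of the others. It was 8.65-fold lower at P7 than at P1 (3.06 to 33.7) and 3.95-fold lower at P17 (1.78 to 9.96), and the P7 and P17 levels overlapped.

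The order of the levels was read against these intervals. At P1 it ran miR-203-3p, miR-184-3p, miR-200c-3p, miR-200b-3p, miR-200a-3p, miR-205-5p, miR-141-3p and miR-429-3p. The intervals of neighbours overlapped between miR-200c-3p and miR-200b-3p, between miR-200b-3p and miR-200a-3p, and between miR-205-5p and miR-141-3p. At P17 miR-184-3p led and miR-203-3p came next, followed by miR-200b-3p, miR-200a-3p, miR-200c-3p, miR-205-5p, miR-141-3p and miR-429-3p. All neighbours from miR-200b-3p downwards had overlapping intervals at P17.

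The make-up of the family was compared within libraries, where scaling has no part. The cluster shares and read ratios do rest on telling miR-200b-3p from miR-200c-3p and miR-200a-3p from miR-141-3p. Each of these similar pairs is split between the clusters, so the uncertainty of the counting rule applies here. The chromosome 4 cluster (miR-200a-3p, miR-200b-3p and miR-429-3p) gave 278 of 503 family reads at P1, or 55.3% (exact 95% interval 50.8 to 59.7). It gave 38 of 82 at P7, or 46.3% (35.3 to 57.7), and 64 of 87 at P17, or 73.6% (63.0 to 82.4). The interval at P17 lay above those of both earlier libraries, and the chromosome 6 cluster made up the rest, 26.4% at P17. The seed group AAUACUG took 69.8% of family reads at P1 (65.6 to 73.8), 81.7% at P7 (71.6 to 89.4) and 63.2% at P17 (52.2 to 73.3). These intervals overlapped between every pair of ages. Within the chromosome 4 cluster, miR-200a-3p and miR-200b-3p kept similar proportions, with 0.828 reads of the former per read of the latter at P1 (0.648 to 1.06), 0.609 at P7 (0.290 to 1.23) and 0.848 at P17 (0.494 to 1.45). Across the clusters, miR-200c-3p had 1.31 reads per read of miR-200b-3p at P1 (1.06 to 1.63), 1.87 at P7 (1.10 to 3.25) and 0.576 at P17 (0.309 to 1.04). The P17 value was the lowest, and its interval lay below those of P1 and P7.

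**Figure D2:**
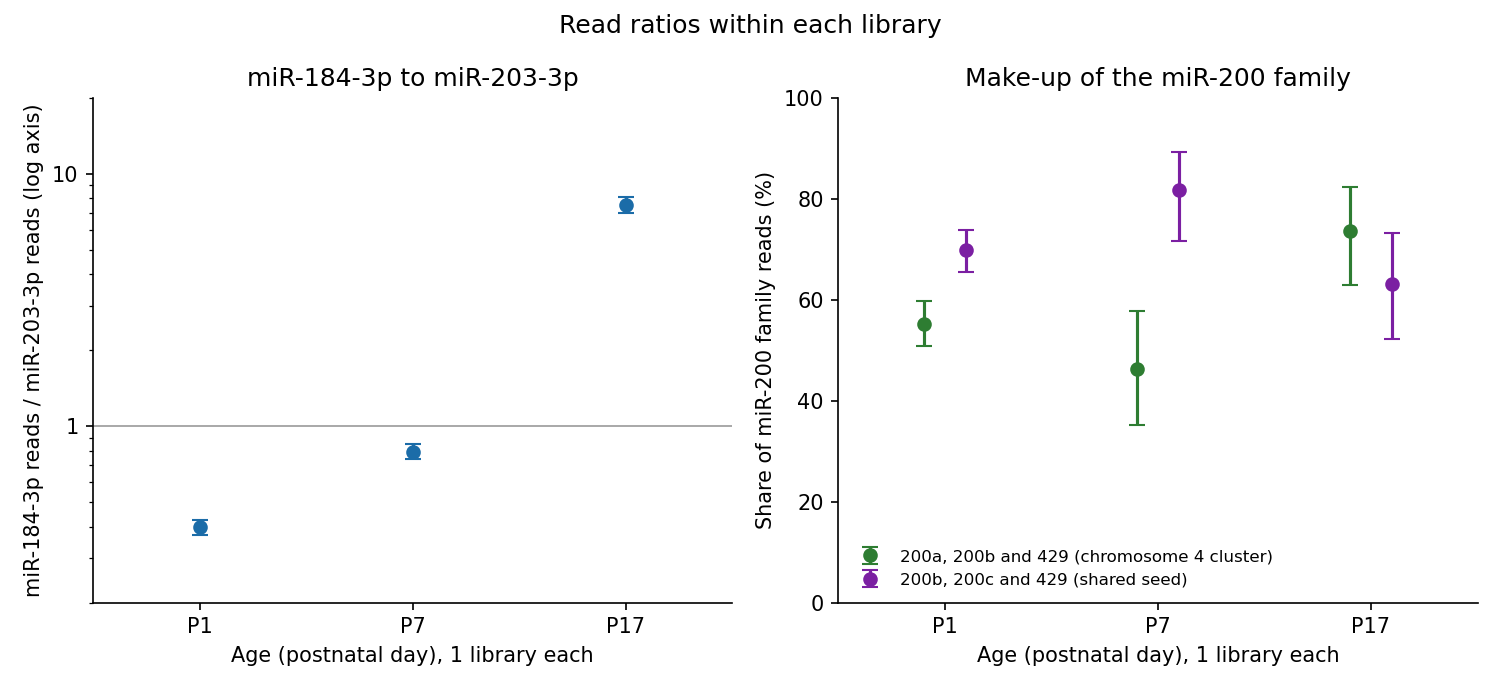
Reads of miR-184-3p per read of miR-203-3p (left, log axis) and shares of the miR-200 family reads in percent (right) in the P1, P7 and P17 libraries, with exact 95% binomial intervals. The ratio goes from 0.398 at P1 to 7.51 at P17, and the chromosome 4 cluster takes 55.3%, 46.3% and 73.6% of the family reads.

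The partners within a cluster were unequal. MiR-200c-3p had 7.33 reads per read of miR-141-3p at P1 (4.89 to 11.4) and 4.75 at P17 (1.58 to 19.2). The intervals overlapped. MiR-200b-3p had 151 reads at P1 and 33 at P17, where its neighbour miR-429-3p had 2 and 3, too few for a ratio to be compared between ages.

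The opposite strands of the 8 hairpins, which are usually discarded after processing, were rare at every age. MiR-205-3p, miR-200c-5p and miR-429-5p had no read in any library, and the detection limit of 3 reads stood at 0.263, 0.235 and 0.257 RPM in order of age. MiR-203-5p had 7 reads at P1 and 1 at each later age, so miR-203-3p made up 99.8% of the reads of its hairpin at P1 and 99.9% at P17. MiR-184-5p was seen only at P17, with 4 reads beside 6633 of miR-184-3p. MiR-200a-5p was the most frequent opposite strand relative to its guide at P1 and P7 but not at P17, with 7 reads beside 125 at P1, 2 beside 14 at P7 and 1 beside 28 at P17. MiR-200b-5p had 2 reads beside 33 at P17 and miR-141-5p had 1 beside 27 at P1, with none at the other ages. Counts of 1 or 2 reads are under the limit of 3 reads, so the order of the opposite strands at P7 and P17 is uncertain.

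The members were then set beside all 648 miRNAs past the abundance filter, with a miRNA called when it differed by over 2-fold after adding 1 RPM to each value, an addition that shrinks the change of rare miRNAs. From P1 to P7, miR-205-5p, miR-200a-3p, miR-200b-3p and miR-200c-3p were called lower, against 44.8% of all miRNAs, and no member was called higher, against 3.09%. From P7 to P17 no member was called lower, against 11.6%, and miR-184-3p was called higher, against 14% of all. From P1 to P17, miR-203-3p, miR-205-5p, miR-200a-3p, miR-200b-3p and miR-200c-3p were called lower, against 46.8%, and miR-184-3p was called higher, against 10.5%. MiR-205-5p passed the filter only through its P1 library, while the other 5 were above 1 RPM in every library, and these counts are descriptive. Because so many miRNAs were lower than at P1, the place among all miRNAs says more than the call.

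By that measure the miR-200 members stood near the lower end for the first step. Their changes from P1 to P7 were -2.51 for miR-200a-3p, -2.34 for miR-200b-3p and -2.07 for miR-200c-3p, against a median of -0.87 over the 648 miRNAs. They held places 15, 20 and 48 from the lowest. MiR-205-5p, at -1.5, held place 143 and miR-203-3p, at -0.75, place 367, close to the middle. MiR-184-3p, at 0.24, was in place 60 from the highest. From P1 to P17 miR-200c-3p, at -2.80, remained near the lower end in place 66, but miR-200b-3p (-1.89), miR-200a-3p (-1.81), miR-203-3p (-1.73) and miR-205-5p (-1.13) lay in places 159, 175, 185 and 278, against a median of -0.91. MiR-184-3p, at 2.49, was in place 25 from the highest.

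**Figure D3:**
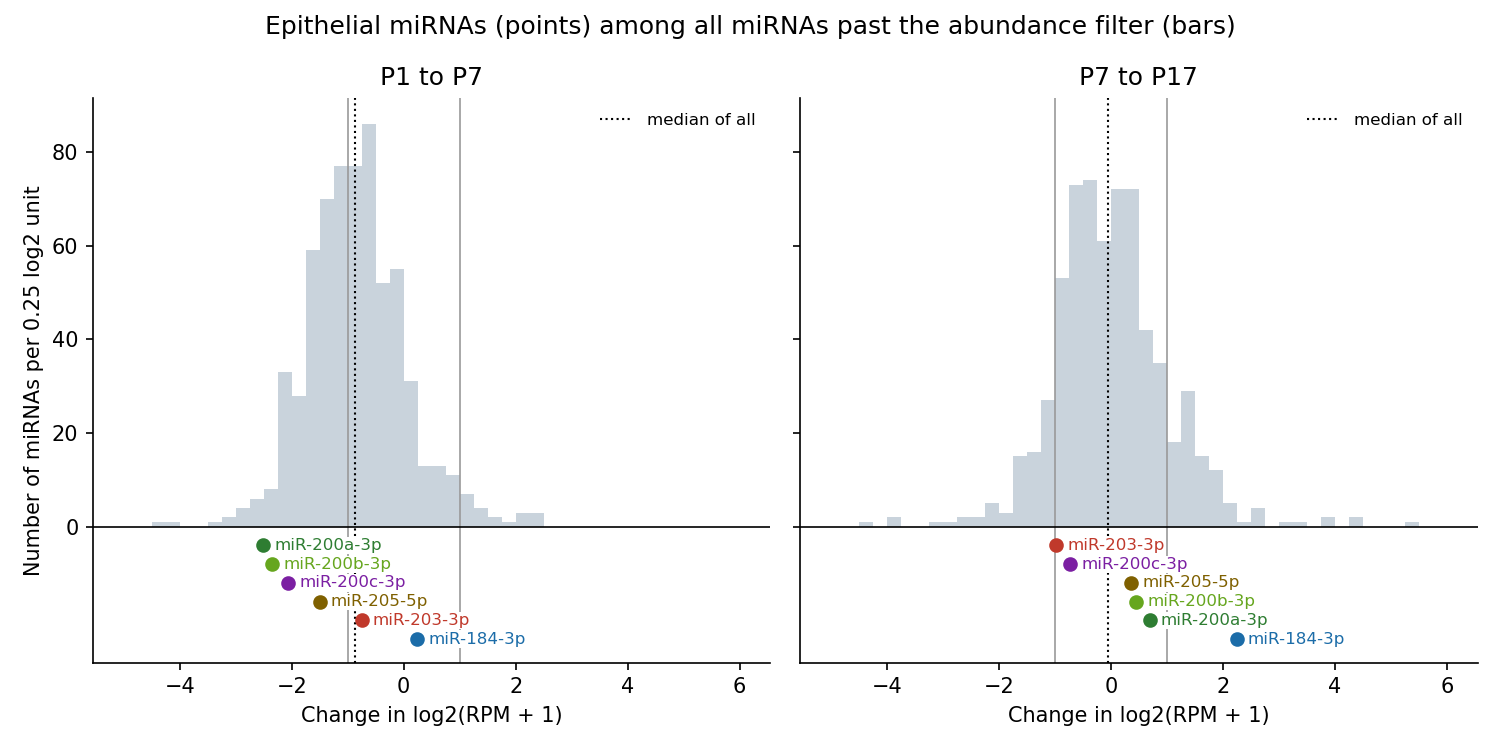
Distribution of the change in log2(RPM + 1) over the 648 miRNAs past the filter (bars, number of miRNAs per 0.25 log2 unit) between P1 and P7 (left) and between P7 and P17 (right), with the 6 epithelial miRNAs past the filter as points below the axis. The grey lines mark 2-fold changes and the dotted line the median. The 3 miR-200 members lie between -2.51 and -2.07 at the first step, left of the median of -0.87, and miR-184-3p lies at 2.25 at the second step.

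Several of these calls differed between scalings. Median-of-ratios size factors raised the median change of the 648 miRNAs by 0.83 from P1 to P7 and by 0.92 from P1 to P17. From P1 to P7 miR-200a-3p (-1.75), miR-200b-3p (-1.54) and miR-200c-3p (-1.22) were still over 2-fold lower under that scaling. From P1 to P17 only miR-200c-3p was, at -1.94, while miR-200b-3p was at -1.0, miR-200a-3p at -0.94, miR-203-3p at -0.69 and miR-205-5p at -0.52. MiR-184-3p was then over 2-fold higher already from P1 to P7, at 1.19, and reached 3.52 from P1 to P17. That scaling called 155 of the 648 miRNAs lower and 165 higher from P1 to P17, against 303 and 68 with RPM. TMM factors gave the same calls of members for these 2 comparisons. Relative to the median of all miRNAs with RPM, the changes from P1 to P17 were 3.40 for miR-184-3p, -0.82 for miR-203-3p, -0.22 for miR-205-5p and -1.5 for the summed miR-200 family.

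**Figure D4:**
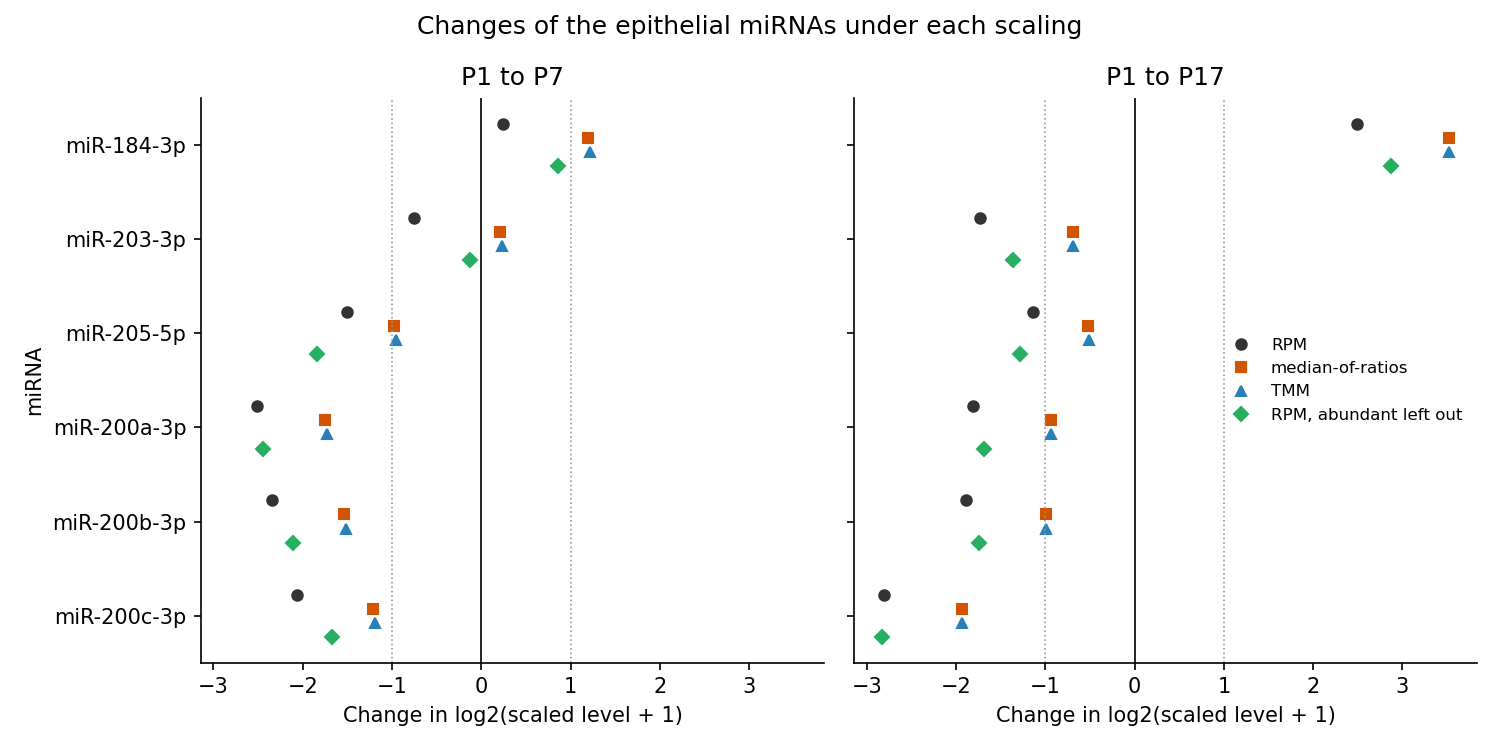
Change of the 6 epithelial miRNAs past the filter on the log2 scale from P1 to P7 and from P1 to P17, as RPM (circles), by median-of-ratios factors (squares), by TMM (triangles) and as RPM on a total leaving out the most abundant miRNAs (diamonds). Dotted lines mark 2-fold. MiR-203-3p from P1 to P7 lies at -0.75 with RPM and at 0.21 and 0.23 with the size factors and TMM factors, and the other points keep their side of 0.

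The miRNAs with the most similar course were found by the distance between the pairs of log2(RPM + 1) changes, P1 to P7 and P7 to P17, among miRNAs past the filter that were not members. With 3 libraries this is a description only. For miR-184-3p they were miR-143-5p at a distance of 0.23, miR-344g-3p at 0.37 and miR-124-3p, the main neuronal miRNA, at 0.43. MiR-124-3p was at 1544, 2055 and 12777 RPM in order of age. For miR-203-3p they were miR-149-3p (0.08), miR-181a-1-3p (0.16) and miR-488-3p (0.17), and for miR-205-5p miR-194-2-3p (0.02), miR-669p-3p (0.12) and miR-501-3p (0.18). For the summed miR-200 family they were miR-6540-3p (0.07), miR-92b-3p (0.19) and miR-10b-5p (0.21). MiR-92b-3p was also nearest to miR-200b-3p, at 0.25, followed by miR-196b-5p (0.34) and miR-10a-5p (0.38). For miR-200a-3p they were miR-690 (0.34), miR-92b-3p (0.50) and miR-6540-3p (0.58), while miR-200b-3p itself was nearer, at 0.29. For miR-200c-3p they were miR-363-3p (0.04), miR-217-3p (0.05) and miR-3081-3p (0.12), all nearer than any other member. Some of the miRNAs named were rare. In order of age, miR-6540-3p was at 7.44, 0.39 and 0.51 RPM and miR-344g-3p at 0, 0.16 and 3.26 RPM. MiR-196b-5p was at 4.99, 0.47 and 0.86 RPM. Each of these was above 1 RPM in 1 library alone, so the added 1 RPM shapes its distance.

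Markers of retina and of other tissues were read from the same libraries. The 5 retinal miRNAs miR-183-5p, miR-96-5p, miR-182-5p, miR-124-3p and miR-9-5p took 22.4%, 43.2% and 38.8% of all reads in order of age, and all 5 were present at every age. From P1 to P17, 1 of the 5 was lower. That was miR-9-5p, the largest part of the sum at P1, at 144259, 125762 and 74010.5 RPM in order of age. From P1 to P7 the summed miR-200 family was at -2.60 on the log2(RPM + 1) scale. The sums of the other 6 lists were lower too, against a median of -0.87 over all 648 miRNAs. The sum of the pigment epithelium and choroid plexus miRNAs miR-204-5p and miR-211-5p was at -1.07, that of 3 multiciliated-cell miRNAs (miR-34b-5p, miR-34c-5p and miR-449a-5p) at -1.15, the liver miRNA miR-122-5p at -1.05, 5 muscle miRNAs at -0.58, 3 gut and kidney miRNAs at -0.51 and 3 red-cell miRNAs at -0.48. The last 3 sums were thus less negative than the median miRNA. Members of a list could differ, and red-cell miR-451a went from 45.5 RPM at P1 to 11.7 RPM at P7. MiR-486a-5p, the largest part of that sum, went from 115 to 103 RPM, and miR-144-3p from 1.14 to 1.18 RPM.

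From P1 to P17, where miR-184-3p was higher, the muscle sum was at 1.05, with 160, 107 and 332 RPM in order of age and 1 of 5 miRNAs lower. Its largest parts at P17 were miR-1a-3p (0.95) and miR-499-5p (1.71). The other muscle miRNAs changed little, with miR-133a-3p at 0.27, miR-206-3p at 0.10 and miR-208b-3p at -0.01. MiR-211-5p was at 549.7, 259 and 5315 RPM, while miR-204-5p was at 14662, 6967 and 9019 RPM, so that their sum was at -0.09. Which cells, of the retina or outside it, gave the reads of these miRNAs was not tested. The sum was at -1.70 for the multiciliated list, with 3 of 3 miRNAs lower, at -0.63 for gut and kidney, with 2 of 3 lower, at -0.56 for the liver miRNA and at -0.04 for red cells, with 1 of 3 lower. The median of all 648 miRNAs was -0.91. The defining miRNAs of these lists had reads at every age, from 1 read of the heart miRNA miR-208b-3p at P7 upwards. The part of other tissues in the levels of the epithelial miRNAs was not tested.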

How the data were processed

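Small RNA libraries were made from total RNA of retina with the NEBNext small RNA kit and sequenced with 50 nt reads. By the study's methods, the authors trimmed adaptors, discarded reads of poor quality and aligned the others to mm10 with HISAT2; the submitters' processing notes name FastQC and BWA instead. Versions, the miRNA annotation and the counting rule are not given in the sources used here. The authors deposited the raw read count and the RPM of each mature miRNA. RPM equals the count divided by the library's summed miRNA counts, within 0.0192 RPM.

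RPM values were used as deposited, log2(RPM + 1) was computed, and miRNAs averaging 1 RPM or more were kept. With 1 library per age no test was run. The 2-fold criterion follows the study's methods, whose adjusted p needs replicates. A figure legend of the study gives n = 5 per group for these profiles, while the labels give 1 pool of 5 eyes per age. One read is worth 0.0784 to 0.0875 RPM. Adaptor ligation favours some sequences, so levels of different miRNAs compare only roughly.

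The alternatives were pseudocounts of 0.1 and 5 RPM, no filter or 10 RPM, fold criteria of 1.5 and 4, median-of-ratios size factors (1.50, 0.862 and 0.743 at P1, P7 and P17, from 644 miRNAs with reads in every library), TMM factors (1.60, 0.808 and 0.774), RPM on a total leaving out each library's 10 most abundant miRNAs (13 in all), and both strands of each hairpin. Named miRNAs were the 8 members, their opposite strands, the 3 of most similar course for each member past the filter and for the family sum, and 7 tissue lists. Members and lists were chosen with earlier results of these data known. Sequences came from RefSeq and gene overlaps from GENCODE M21. Simulated data with counting error alone were used to test the steps. TMM factors came from edgeR 4.0.16 in R 4.3.3, and the rest from scipy 1.17.1, pandas 2.3.3 and numpy 2.4.6 in Python 3.11.15, with plots by matplotlib 3.10.9. No data column was left unused.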

Additional observations from a re-analysis of the deposited data

How the results depend on the processing

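No paired analysis was possible because only 1 library represents each age, and no library could be left out. Of the 6 members past the filter, 5 were over 2-fold lower from P1 to P17, against 46.8% of all 648 miRNAs. The number of members lower was 1 under median-of-ratios scaling and 1 under TMM scaling, against 23.9% of all miRNAs under each. It was 1 with a fold criterion of 4, against 21.8% (miR-200c-3p each time). With a filter of 10 RPM, which leaves only miR-184-3p and miR-203-3p to count, it was 1, against 48.3%. It was 4 to 6 in the other alternatives, against 16.7% (no filter, which counts all 8 members) to 59.9% (fold criterion of 1.5). MiR-184-3p was the only member over the criterion higher in all 9, against 3.76% to 25.5% of all miRNAs. The summed miR-200 family, at -2.41 from P1 to P17, was at -1.98 with a pseudocount of 5 RPM, -1.43 under median-of-ratios scaling and -1.42 under TMM scaling. Median-of-ratios and TMM scaling shift all miRNAs together by construction, whereas a larger pseudocount shrinks the changes of rare miRNAs most. Other causes were not tested. From P7 to P17 its change of 0.19 became -0.03 with the total without the most abundant miRNAs. The shares of seed groups and clusters stayed within their intervals when both strands were counted. Family reads then went only from 503, 82 and 87 to 511, 84 and 90 in order of age. So few added reads could hardly move the shares, and this alternative says little about them. Of 120 alternative values for 24 changes of members, 31 moved beyond counting error, 23 closer to 0 and 8 further from it, and 2 changed sign, both for miR-203-3p from P1 to P7. Over all 648 miRNAs, the calls from P1 to P7 went from 290 lower and 20 higher to 73 and 62 under median-of-ratios scaling and to 69 and 63 under TMM scaling, and those from P1 to P17 from 303 and 68 to 155 and 165 under each. Depth limits miR-141-3p, miR-429-3p and miR-205-5p, with 1 to 31 reads.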
